A study of Mus musculus with 18 samples.

Results

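The genes described here are Ly6c1, Ly6c2, Ly6e, Cx3cr1 and F13a1, surface and secreted markers of blood monocytes, in macrophages that lack the Polycomb subunit EED. They were taken as every row that carries 1 of these 5 symbols in the 6 gene lists deposited for the study, and all 5 were found, of 816 gene symbols listed in all. They were chosen by their deposited fold changes and p-values in these same comparisons, so the values below are a description and no test of them was made. The libraries came from mouse bone marrow-derived macrophages, primary cells grown from marrow in medium conditioned by L929 cells. EED KO cells carried loxP-flanked Eed alleles and 1 copy of LysM-Cre, a Cre recombinase expressed from the Lyz2 gene of myeloid cells, and WT cells came from littermate controls. Whether those controls carried the Cre was not given in the sources used here. Each genotype was collected as unstimulated cells, as LPS primed cells (lipopolysaccharide of Salmonella at 100 ng/ml for 24 h) and as LPS tolerant cells (the same dose, 48 h of rest, then 10 ng/ml). There were 3 libraries in each of the 6 groups, 18 in all. The sources used here do not say how long the final exposure lasted, nor whether replicates were separate mice. Within a genotype the same replicate numbers recur in each condition, and whether they mark shared mice was not given.

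Classical monocytes leave the marrow with much Ly6C, a small protein tethered to the cell surface by a lipid anchor. Patrolling monocytes carry little Ly6C and much CX3CR1, the receptor for the chemokine fractalkine. When monocyte precursors mature in culture into macrophages, Ly6C and many other monocyte features are usually lost. EED belongs to Polycomb repressive complex 2, which methylates histone H3 at silent genes. The question behind the choice of genes was whether macrophages without EED keep monocyte features. In mice the Ly6C antigen is encoded by the near-identical neighbours Ly6c1 and Ly6c2, of which Ly6c2 is the form of monocytes, while Ly6c1 is best known from endothelial cells and lymphocytes. Ly6e encodes a broadly expressed, interferon-inducible relative that restricts some viruses, so it is a weaker marker of monocytes than the others. F13a1 encodes the catalytic subunit of coagulation factor XIII, a transglutaminase that cross-links fibrin and that monocytes, macrophages and platelets make.

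The stretch around each gene's start site is shown first. Ly6c1 and Ly6c2, both listed as higher in the LPS conditions, share part of this sequence. Whether the sequence bears on their values was not tested. The windows are RefSeq sequences of build GRCm38.p6, 300 bases long, with 250 bases before the start site and 50 after it, written 5′ to 3′ on the gene's strand. Capitals mark GAGGAAGT, a core that the myeloid factor PU.1 is known to bind, searched on both strands; it was chosen after these sequences had been seen. Sequences were found for 4 of the 5 members. Ly6c1, Ly6c2 and F13a1 have 2 windows each, of which the first one with these letters is shown.

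Ly6c1, chr15:75048614-75048913, minus strand: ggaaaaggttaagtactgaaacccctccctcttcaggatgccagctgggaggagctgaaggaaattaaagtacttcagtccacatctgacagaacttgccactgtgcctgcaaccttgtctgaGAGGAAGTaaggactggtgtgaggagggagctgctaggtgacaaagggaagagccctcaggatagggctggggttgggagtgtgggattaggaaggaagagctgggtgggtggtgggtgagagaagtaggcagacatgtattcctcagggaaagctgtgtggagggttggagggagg
Ly6c2, chr15:75111922-75112221, minus strand: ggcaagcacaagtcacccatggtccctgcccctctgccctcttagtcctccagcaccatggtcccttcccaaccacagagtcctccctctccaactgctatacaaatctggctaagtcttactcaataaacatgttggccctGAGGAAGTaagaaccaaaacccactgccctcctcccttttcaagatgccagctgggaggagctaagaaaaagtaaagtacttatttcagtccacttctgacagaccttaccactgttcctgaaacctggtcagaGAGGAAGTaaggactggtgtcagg
Cx3cr1, chr9:120068247-120068546, minus strand: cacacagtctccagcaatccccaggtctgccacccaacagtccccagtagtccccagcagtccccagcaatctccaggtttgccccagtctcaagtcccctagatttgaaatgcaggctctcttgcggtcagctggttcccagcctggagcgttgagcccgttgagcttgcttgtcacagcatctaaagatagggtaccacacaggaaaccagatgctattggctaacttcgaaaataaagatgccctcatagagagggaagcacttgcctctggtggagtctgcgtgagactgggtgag
F13a1, chr13:37049164-37049463, minus strand: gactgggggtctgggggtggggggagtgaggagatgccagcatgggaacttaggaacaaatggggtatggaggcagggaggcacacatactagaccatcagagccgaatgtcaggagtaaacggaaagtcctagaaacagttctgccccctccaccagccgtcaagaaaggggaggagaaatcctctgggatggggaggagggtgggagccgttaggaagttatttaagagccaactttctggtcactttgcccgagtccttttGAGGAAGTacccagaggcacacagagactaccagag

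The 8 letters were present in a window of 3 of these 4 genes, Ly6c1, Ly6c2 and F13a1. Of 27025 genes with a window, 3.69% hold them in at least 1. Since the letters were chosen after these sequences had been seen, nothing is read from that gap. The windows of Ly6c1 and F13a1 that are not shown, the first of each, hold 0 copies. Ly6c2 has 2 copies and Ly6c1 and F13a1 have 1 each, and a match is a description of the sequence, not a site of binding. The Ly6c1 and Ly6c2 windows shown aligned over 138 of their 300 bases, of which 87.0% were identical. The first window of each of these genes aligned over 266 bases, with 78.2% identical. The windows shown were also searched for CpG, the dinucleotide that is dense at many Polycomb-bound promoters. Ly6c1 and Ly6c2 hold 0 CpG each, and Cx3cr1 and F13a1 hold 5 each, against a median of 7 over all 32851 windows. Windows with 5 or fewer CpG made up 43.6% of all windows, so the count for Cx3cr1 and F13a1 is common. Windows with 0 CpG made up 5.43%. The windows not shown hold 1 CpG in Ly6c1, 0 in Ly6c2 and 3 in F13a1.

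Ly6c1, Ly6c2 and Ly6e lie in the Ly6 gene cluster of chromosome 15, Cx3cr1 on chromosome 9 and F13a1 on chromosome 13. Among the 10 protein-coding genes within 200 kb of Ly6c1, 0 were listed in unstimulated cells, 2 in LPS primed cells and 3 in LPS tolerant cells. All but Ly6i were Ly6c2 and Ly6e, which were chosen for being listed, so Ly6i is the 1 listed neighbour that the choice of genes did not bring in. Around Cx3cr1, 0 of 9 neighbours were listed in any condition, and the 1 neighbour of F13a1, Nrn1, was not listed either. Gene order for these counts was read from the RefSeq annotation of GRCm38.p6, while the submitters' processing notes name GRCm39.

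The deposited lists hold genes that passed a selection, without values per library, so depth and the level in each sample are unknown. Log fold changes are EED KO over WT, with the base taken as 2. The direction was read from Eed itself, which the authors' deposited table places 8.23-fold lower in EED KO cells when unstimulated, 12.0-fold lower when LPS primed and 14.6-fold lower when LPS tolerant. "Rose" and "fell" are kept for rows with an adjusted p under 0.05, a threshold applied here to the authors' adjusted values. The error given with a fold change is an approximate standard error, the one its unadjusted p implies under a normal distribution. In bulk RNA, more cells of a type and more RNA per cell cannot be told apart.

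Of the 15 combinations of gene and condition, 11 were listed, and in all 11 the gene was higher in EED KO cells. The number of listed members was 2 in unstimulated, 4 in LPS primed and 5 in LPS tolerant cells. For comparison, 0.765%, 1.23% and 1.44% of protein-coding genes in the GENCODE vM21 annotation were listed as higher in these conditions, in the same order; since being listed led to the choice, nothing is read from the gap. Listed in either direction were 0.966%, 1.53% and 1.73% of protein-coding genes. These shares include genes that macrophages may not express, and no share over expressed genes could be formed from the lists. Past the adjusted threshold, 1 member rose in unstimulated cells, where 16.7% of all listed rows did. Under LPS priming 3 members rose, against 27.6% of listed rows, and in LPS tolerant cells 2 rose, against 21.2%. Members stood in none of the lists of lower genes, and the lists themselves were mostly of higher genes, with 174 of 227, 301 of 377 and 344 of 419 rows higher in the same order.

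**Figure D1:**
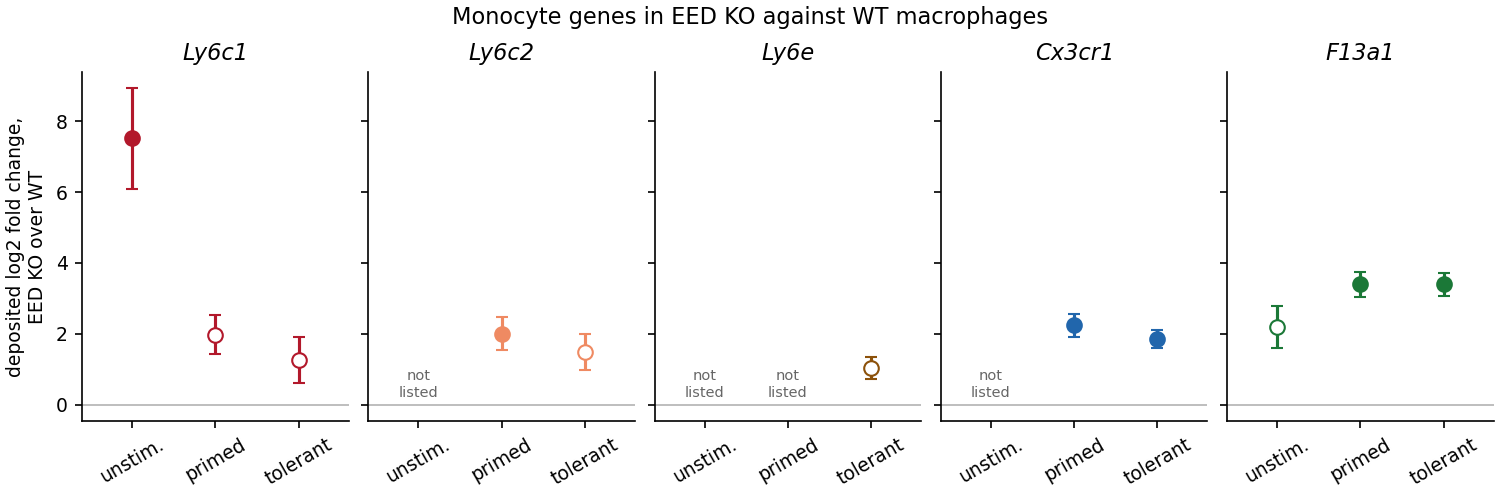
The authors' deposited log2 fold change of each gene, EED KO over WT, is plotted by condition; bars are the approximate standard error implied by the deposited p, filled points passed an adjusted p of 0.05 and open points did not. F13a1 stands near 3.40 in both LPS conditions, Ly6c1 is at 7.51 in unstimulated cells and under 2 in the others, and 4 combinations were not listed.

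F13a1, the transglutaminase subunit of factor XIII, had the highest value of the 5 genes in both LPS conditions. It rose by 3.40 on the log2 scale (approximate SE 0.36, 10.5-fold, adjusted p = 7.14e-17) in LPS primed cells, per the authors' deposited table. In LPS tolerant cells it rose by 3.40 as well (approximate SE 0.33, 10.5-fold, adjusted p = 1.2e-20), per the authors' deposited table. The difference between these fold changes, tolerant minus primed, was 0.0021, with an approximate 95% interval of -0.96 to 0.97. In unstimulated cells F13a1 stood at 2.19 (approximate SE 0.59, 4.57-fold) and had an adjusted p of 0.187, per the authors' deposited table. The primed value exceeded the unstimulated one by 1.20 with an approximate SE of 0.69, and no test of that gap was made. By size of fold change F13a1 was 16th of 174 higher genes in unstimulated cells, 6th of 301 in LPS primed cells and 8th of 344 in LPS tolerant cells. In primed cells it stood between Mmp9, a gelatinase, at 3.43 and the imprinted gene Peg10 at 3.36, per the authors' deposited table. In tolerant cells it stood between Rps27a, a ribosomal protein fused to ubiquitin, at 3.41 and Srp54c at 3.38, per the authors' deposited table. F13a1 and Ly6c1 were among the 30 genes listed as higher in all 3 conditions.

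Cx3cr1, the fractalkine receptor, rose in both LPS conditions and was not listed in unstimulated cells. The authors' deposited table gives it 2.24 (approximate SE 0.32, 4.72-fold, adjusted p = 7.03e-09) in LPS primed cells. In LPS tolerant cells it rose by 1.87 (approximate SE 0.25, 3.64-fold, adjusted p = 4.15e-10), per the authors' deposited table. Tolerant minus primed was -0.37 with an approximate 95% interval of -1.18 to 0.43, so the order of the conditions is not settled by these values. Cx3cr1 was 22nd of 301 and 36th of 344 higher genes by fold change, and 18th of 377 and 12th of 419 listed rows by unadjusted p. Its absence from the unstimulated lists gives no value: a gene can be missing because of its p, its fold change or a filter. Together with F13a1 it belongs to 33 genes that rose in both LPS conditions, and to 90 that were listed as higher in both.

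Ly6c2, the Ly6C gene of monocytes, rose in LPS primed cells, by 2.01 (approximate SE 0.47, 4.03-fold, adjusted p = 0.00941), per the authors' deposited table. In LPS tolerant cells it stood at 1.49 (approximate SE 0.50, 2.81-fold) and had an adjusted p of 0.441, per the authors' deposited table. It was not listed in unstimulated cells. Tolerant minus primed was -0.52 with an approximate 95% interval of -1.87 to 0.82. The call in primed cells and its absence in tolerant cells therefore do not show that the conditions differ.

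Ly6c1 had the most extreme value of the set and the least even one. In unstimulated cells it rose by 7.51, per the authors' deposited table, the top of the 174 higher genes, which corresponds to 182-fold. The approximate SE was 1.42, larger than that of any other member in any condition, and the adjusted p was 0.000456. The next gene in that list, the protease inhibitor Serpine2, stood at 4.29, per the authors' deposited table. By unadjusted p, Ly6c1 was 20th of 227 listed rows. When cells were LPS primed it stood at 1.98 (approximate SE 0.55, adjusted p = 0.088), and in LPS tolerant cells at 1.26 (approximate SE 0.64, adjusted p = 1), per the authors' deposited table. Primed minus unstimulated was -5.53 with an approximate 95% interval of -8.51 to -2.54. In tolerant cells its unadjusted p of 0.0497, per the authors' deposited table, was just inside the largest p listed, 0.0498, and ranked it 417th of 419 rows.

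Ly6e, the interferon-inducible relative, was listed in LPS tolerant cells alone. The authors' deposited table gives it 1.04 (approximate SE 0.32, 2.06-fold, adjusted p = 0.246). It had the lowest value of the 5 genes in tolerant cells and was 138th of 344 higher genes. It is 1 of 241 genes listed as higher in tolerant cells and not in the other conditions.

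**Figure D2:**
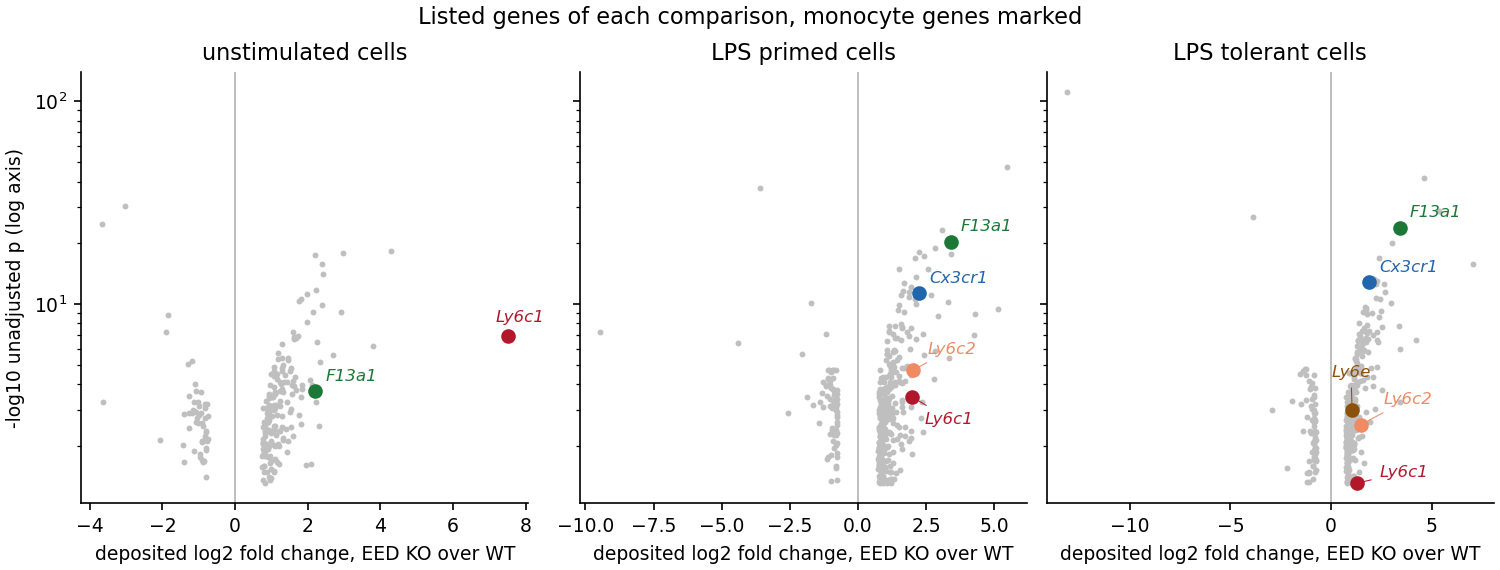
Each point is a row of the authors' lists, with the log2 fold change of EED KO over WT on the x axis and -log10 of the unadjusted p on a log y axis; the 5 monocyte genes are coloured. F13a1 and Cx3cr1 lie near the top of the LPS primed and LPS tolerant panels, while Ly6c1 lies far right in unstimulated cells and at the lower edge in tolerant cells.

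Some reads of Ly6c1 and Ly6c2 could match both genes, which may bear on their separate values. In GENCODE vM21 the longest coding transcripts of Ly6c1 (844 bases) and Ly6c2 (822 bases) aligned over 822 base pairs with 97.6% identity. Of the 150-base windows of the Ly6c1 transcript, the length of 1 read, 5.61% occur unchanged in a Ly6c2 transcript, and of 50-base windows 31.7% do. Ly6i, another listed relative, shared 0 windows of 150 bases with either gene, at 84.9% identity to Ly6c1 and 85.7% to Ly6c2, and Ly6e shared 0 as well. In log2 fold change, Ly6c1 minus Ly6c2 was -0.031 in LPS primed cells and -0.23 in LPS tolerant cells, while in unstimulated cells Ly6c1 was listed and Ly6c2 was not. Both genes were measured in the same libraries and may share reads, so their errors are not taken as independent and none is given for these differences. No reads were examined here. How the authors' counting divided reads between them, and how far a row covers the whole gene, were not given in the sources used here. Their values remain uncertain as separate measurements.

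Among the other genes of the Ly6 family, 1 of 20 was listed. This was Ly6i, at 0.82 (adjusted p = 0.589) in LPS primed cells and at 1.27 (adjusted p = 0.348) in LPS tolerant cells, per the authors' deposited table. Ly6a, which encodes the stem cell antigen Sca-1, and Ly6g, the neutrophil antigen, were not listed in any condition. Its values compare with medians of 0.96 and 0.86 over all listed rows in these conditions, so Ly6i was below the median in primed cells and above it in tolerant cells.

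The other classical monocyte markers were listed in both directions. Of 18 such markers besides Ly6c2 and F13a1, 2 (11.1%) were listed in each condition. Listed in either direction were 0.966%, 1.53% and 1.73% of protein-coding genes in unstimulated, primed and tolerant cells. Nothing is read from these gaps, since the markers were picked with earlier results of these data known. In unstimulated cells both listed markers were lower in EED KO cells. They were the interferon-inducible membrane gene Ifitm6 at -0.997 (adjusted p = 0.449) and Ms4a4c at -0.88 (adjusted p = 1), per the authors' deposited table. In LPS primed cells Plac8, a small cysteine-rich protein of monocytes, rose by 2.44 (adjusted p = 0.00153), and Mcemp1, a membrane protein of monocytes and neutrophils, fell by 1.09 (adjusted p = 0.023), per the authors' deposited table. In LPS tolerant cells Ifitm6 stood at -0.98 (adjusted p = 0.575) and the haptoglobin gene Hp at 0.88 (adjusted p = 1), per the authors' deposited table. Ccr2, the chemokine receptor that brings classical monocytes out of the marrow, was not listed in any condition. Vcan, Fn1, Chil3 and Cd14 were likewise absent from all lists.

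Of 15 patrolling monocyte markers besides Cx3cr1, 4 (26.7%) were listed in LPS tolerant cells, all higher in EED KO cells, and 3 rose. These were Cd300e, an activating receptor, by 1.34 (adjusted p = 0.000241), Itgal, the integrin chain of LFA-1, by 0.98 (adjusted p = 0.043), and the lipid scavenger receptor Cd36 by 0.92 (adjusted p = 0.0479), per the authors' deposited table. Spn, the sialoprotein CD43, stood at 0.95 (adjusted p = 0.383), per the authors' deposited table. Among LPS primed cells 1 of the 15 was listed, Itgal, which rose by 0.82 (adjusted p = 0.0302), per the authors' deposited table. In unstimulated cells 1 was listed, the fatty acid binding protein Fabp4, at 0.79 (adjusted p = 1), per the authors' deposited table. The medians of the 4 listed markers and of all listed rows in tolerant cells were 0.96 and 0.86. In tolerant cells 1.44% of protein-coding genes were listed as higher, 82.1% of all listed rows were higher and 21.2% rose. Of the mature macrophage and dendritic cell markers described below, 26.9% and 25% were listed in tolerant cells, so the share is not particular to patrolling markers. Nr4a1, the nuclear receptor that patrolling monocytes need, and Treml4 were not listed in any condition. Several of these genes are also expressed by macrophages.

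**Figure D3:**
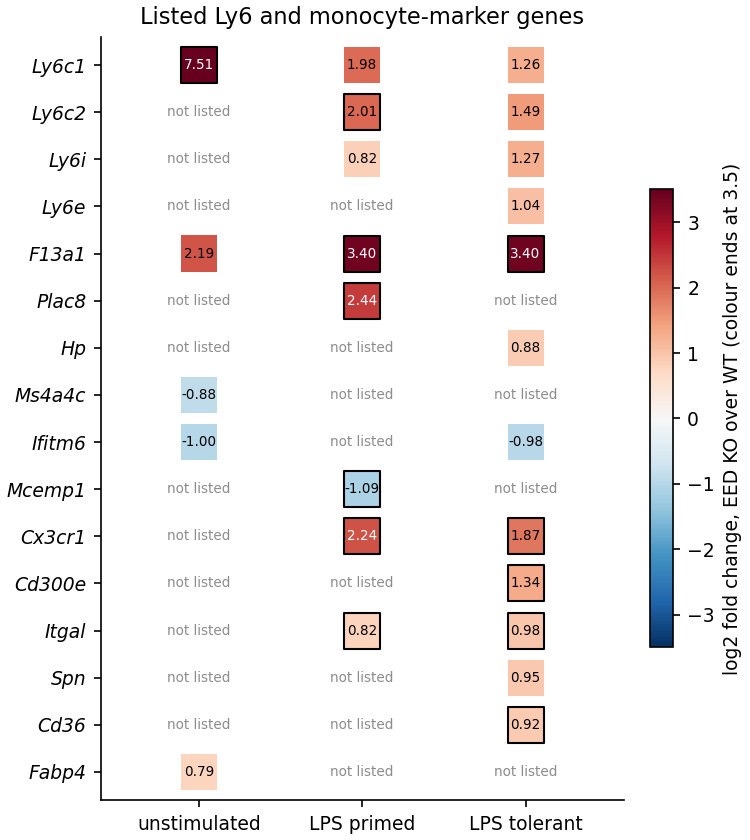
Rows are the listed genes of the Ly6 family and of the classical and patrolling monocyte marker lists, and columns are the conditions; numbers and colours give the authors' deposited log2 fold change of EED KO over WT, and black frames mark an adjusted p under 0.05. Without the 5 chosen genes, 10 of 14 values (71.4%) are higher, against 76.7%, 79.8% and 82.1% of all listed rows in unstimulated, primed and tolerant cells, and the 4 lower values belong to the classical markers Ms4a4c, Ifitm6 and Mcemp1.

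Among the partners of these genes 1 passed the adjusted threshold, Serpine2 in unstimulated cells. Cx3cl1, which encodes fractalkine itself, stood at 1.15 (adjusted p = 0.348) in LPS tolerant cells, per the authors' deposited table, and the shedding proteases Adam10 and Adam17 were not listed. Of 15 genes of the fractalkine axis and chemokine receptors besides Cx3cr1, only Cx3cl1 and Ccr1 were listed, both in tolerant cells, the second at -0.86 (adjusted p = 0.556), per the authors' deposited table. Of 27 genes of coagulation, fibrinolysis and transglutaminases besides F13a1, 2, 4 and 1 (7.41%, 14.8% and 3.70%) were listed in unstimulated, primed and tolerant cells, against the 0.966%, 1.53% and 1.73% of protein-coding genes given above. Nothing is read from these gaps, since the list was written with earlier results of these data known. Serpine2 rose in unstimulated cells, and stood at 2.30 (adjusted p = 0.241) in primed and 2.17 (adjusted p = 0.227) in tolerant cells, per the authors' deposited table. Fgl2, a membrane prothrombinase, stood at 1.00 (adjusted p = 1) and 1.54 (adjusted p = 0.448) in unstimulated and LPS primed cells, per the authors' deposited table. Serpinb2, an inhibitor of plasminogen activators, stood at 0.88 (adjusted p = 0.146) and clotting factor F7 at -1.02 (adjusted p = 0.436) in LPS primed cells, per the authors' deposited table. F13b, the carrier subunit of factor XIII, and the tissue transglutaminase Tgm2 were not listed.

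Markers of other cells that carry these genes were listed as well. Besides Ly6c1, 1 of 10 endothelial markers was listed, Eng, at 0.86 (adjusted p = 0.0559) in LPS primed and 0.77 (adjusted p = 0.99) in LPS tolerant cells, per the authors' deposited table. Of 12 T and NK cell markers besides Ly6c1, only Il7r was listed; it stood at -0.76 (adjusted p = 1) in unstimulated cells and fell by 1.18 in primed and fell by 1.38 in tolerant cells, per the authors' deposited table. Of 11 platelet, megakaryocyte and erythroid markers besides F13a1, Ppbp and Car2 were listed (18.2%), in LPS tolerant cells, where they rose by 2.03 and 1.82, per the authors' deposited table. The platelet genes Pf4, Itga2b and Gp9 were not listed in any condition. Of 15 neutrophil markers, 0, 2 and 3 were listed in unstimulated, primed and tolerant cells. Mmp9 rose by 3.43 and 3.41 in LPS primed and LPS tolerant cells, and Mmp8 rose by 1.30 in tolerant cells, per the authors' deposited table. The second in primed cells was Mcemp1, which fell by 1.09 (adjusted p = 0.023), per the authors' deposited table. The third in tolerant cells was Lcn2, a siderophore-binding protein, at 0.87 (adjusted p = 0.201), per the authors' deposited table. These 3 make 20.0% of the neutrophil list, against 1.44% of protein-coding genes listed as higher in tolerant cells. These marker lists were all written with earlier results of these data known, so nothing is read from that gap or from their other counts. Levels per group were not used here, and the part of other cells in the values of the members was not tested.

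By distance in log2 fold change, the genes most like F13a1 over the 3 conditions were Bmpr1a (0.99), a bone morphogenetic protein receptor, Clstn1 (1.45), a calsyntenin, and Dmwd (2.07), among 38 genes with a value in each. Bmpr1a rose by 2.39, 2.83 and 2.61 in unstimulated, primed and tolerant cells, per the authors' deposited table. For Cx3cr1, over the LPS primed and LPS tolerant conditions and 110 candidate genes, the nearest included Cd55 (0.16), a complement regulator, and the metalloprotease Adam19 (0.25). For Ly6c2, in the same 2 conditions, they were the small GTPase Mras (0.094), Tmem176b (0.12) and Fcrls (0.14), an Fc receptor-like gene known from microglia. Ly6c1 had no close match: the nearest genes were Serpine2 (3.36), Clstn1 (4.73) and Tmem178 (4.73).

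**Figure D4:**
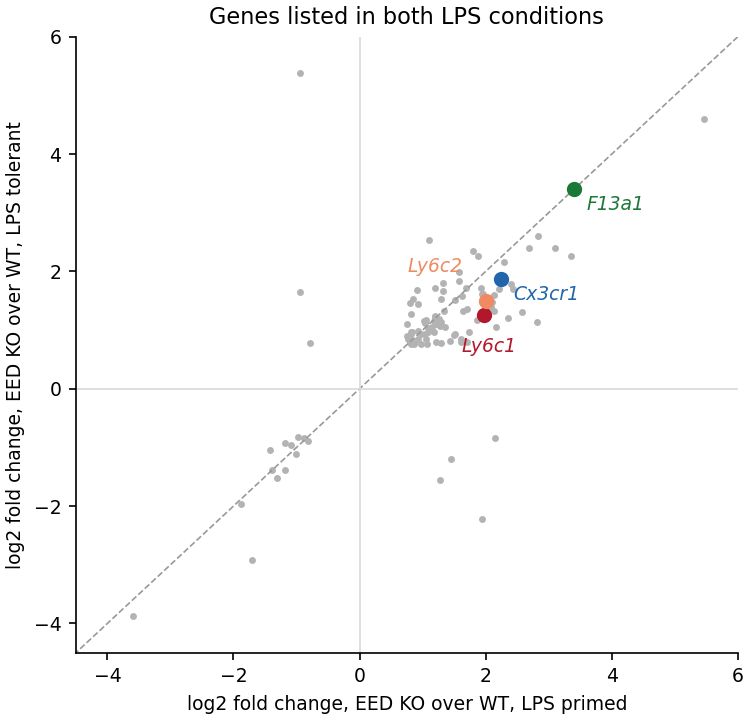
The log2 fold change of EED KO over WT in LPS tolerant cells (y axis) is plotted against that in LPS primed cells (x axis) for 111 genes listed once in each, from the authors' deposited table; the dashed line marks equal values, and H2-Q1 lies outside the axes. F13a1 sits on the line at 3.40, and Cx3cr1, Ly6c2 and Ly6c1 lie a little below it.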

How the data were processed

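Gene expression was measured by RNA-seq of poly(A)-selected, stranded libraries sequenced as 150 bp read pairs, as the labels' protocols say. Per the submitters' processing notes, HISAT2, edgeR, R 4.0.3 and the build GRCm39 were used; their roles, the annotation, the filters and the design were not given in the sources used here. For each condition the authors deposited 1 list of higher and 1 of lower genes. Per the file headers, each deposited row holds a log fold change, taken as log2, and its p-value before and after adjustment; rows reach an unadjusted p of 0.0498 and start at an absolute log2 fold change of 0.75. Dividing adjusted by unadjusted p gives at least 413233, 379747 and 338297 tests in unstimulated, primed and tolerant cells, against 21951 protein-coding genes in GENCODE vM21, so a row may stand for a part of a gene. The labels of 1 library, WT LPS primed replicate 1, lack the entry that ties the others to a list.

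No model was fitted. The approximate SE divides the size of the log2 fold change by the normal quantile that its unadjusted p gives; for differences between conditions it assumes independent libraries, and its code was tested on simulated data. How the spread between libraries entered the deposited p-values was not given in the sources used here, and that spread may be technical. The members and all 15 gene lists (235 symbols, 234 matched in RefSeq) were chosen with earlier results of these data known. Named are the members, all listed genes of the Ly6 and monocyte lists, up to 4 genes with the smallest p in each condition of each other list, the 3 nearest genes per member (1 is not reported here) and, beside a member, its neighbours in rank; genes said to be absent from the lists were picked as well-known markers. SciPy 1.17.1, pandas 2.3.3 and Biopython 1.88 were used.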

Additional observations from a re-analysis of the deposited data

How the results depend on the processing

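Counted as listed by the authors instead of at an adjusted p under 0.05, the members numbered 2 instead of 1 in unstimulated cells, 4 instead of 3 in LPS primed cells and 5 instead of 2 in LPS tolerant cells. With an adjusted p under 0.01, or with an absolute log2 fold change of at least 1 as well, the counts were 1, 3 and 2, as before. If the deposited logarithm were natural, all 11 folds would be larger, F13a1 29.8-fold in place of 10.5-fold in LPS primed cells. With signed -log10 p as the measure, 0 of 3 nearest genes were shared for Ly6c1 and Ly6c2, and 1 of 3 for Cx3cr1 (Cd55) and F13a1 (Bmpr1a). Counting neighbours within 500 kb changed none of the 15 counts. With a t quantile at 4 degrees of freedom the approximate SE shrank for all 8 differences, that of Ly6c1 in LPS primed against unstimulated cells to 0.19 in place of 1.52. For Cx3cr1 in LPS tolerant against LPS primed cells it shrank to 0.0023 in place of 0.41. The sources used here do not say that the deposited p came from such a t test, so these smaller errors are not read as precision. The printed errors and intervals, and what is said of the order of conditions, hold for the normal quantile only. No replicate could be left out in turn, and the depth is unknown for every value. No paired analysis was possible because values per library were not used here.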

Other observations

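A minority of the markers of earlier and later stages of the myeloid lineage were listed. Of 14 myeloid progenitor markers, 2 were listed in unstimulated cells, Sox4, a transcription factor, which rose by 1.46 (adjusted p = 0.0128), and Cd34 at 1.84 (adjusted p = 0.153), per the authors' deposited table. In LPS primed cells 1 was listed, Myb, a factor of proliferating progenitors, which rose by 2.78 (adjusted p = 0.0231), per the authors' deposited table, and in LPS tolerant cells 0 were. Kit, Flt3, Mpo and Elane, other progenitor markers of this set, were not listed in any condition. Of 29 monocyte and macrophage transcription factors, 2, 2 and 0 were listed in the same order of conditions, all higher. Besides Myb they were Gfi1 at 1.43 (adjusted p = 0.323) in LPS primed cells and Egr3 at 1.56 (adjusted p = 0.22) and Irf4 at 0.95 (adjusted p = 1) in unstimulated cells, per the authors' deposited table. Spi1, Irf8, Klf4 and Cebpb, factors that monocytes depend on, were not listed in any condition. Of protein-coding genes, 0.966%, 1.53% and 1.73% were listed in either direction in unstimulated, primed and tolerant cells. Both lists were written with earlier results of these data known, so nothing is read from their counts.

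Markers of mature macrophages were listed in both directions. Of 26 such markers, 3, 4 and 5 were higher and 1, 1 and 2 lower in EED KO cells in unstimulated, primed and tolerant cells. Apoe, the apolipoprotein, and the scavenger receptor Marco rose in LPS primed cells, by 3.31 and 1.29, and Gas6, a ligand of engulfment receptors, rose by 1.16 in LPS tolerant cells, per the authors' deposited table. Lyz2 fell by 1.17, 1.19 and 0.93 in the same order of conditions, per the authors' deposited table, and it is the gene that carries the Cre. It was the only lower marker in unstimulated and in LPS primed cells. The second lower marker in LPS tolerant cells, the folate receptor gene Folr2, is named after its value was seen and stood at -1.19 (adjusted p = 1), per the authors' deposited table. In unstimulated cells the mannose receptor Mrc1 stood at 1.24, the complement gene C1qa at 1.19 and Gas6 at 0.78 (adjusted p = 1 each), per the authors' deposited table. The engulfment receptor Mertk stood at 0.79 (adjusted p = 0.374) in LPS primed cells, and in LPS tolerant cells its relative Axl stood at 0.78 (adjusted p = 0.15) and Marco at 1.52 (adjusted p = 0.626), per the authors' deposited table. Of 16 dendritic cell markers, 5, 5 and 4 (31.25%, 31.25% and 25%) were listed, all higher, with 3, 4 and 1 risen. Listed as higher were 0.765%, 1.23% and 1.44% of protein-coding genes, and 16.7%, 27.6% and 21.2% of all listed rows rose. The markers were picked with earlier results of these data known, so nothing is read from the gaps. Flt3, Zbtb46, Xcr1 and Clec9a, other markers of this set, were not listed in any condition. In LPS primed cells Fscn1, an actin-bundling protein, rose by 2.58, the class II genes H2-Aa and H2-Eb1 by 1.70 and 1.52, and the invariant chain gene Cd74 by 1.14, per the authors' deposited table. In unstimulated cells H2-Eb1 rose by 1.69, H2-Ab1 by 1.63 and H2-Aa by 1.51, and Cd24a stood at 0.93 (adjusted p = 0.573), per the authors' deposited table. In LPS tolerant cells Fscn1 rose by 1.30, while H2-Ab1, H2-Eb1 and H2-Aa stood at 0.96, 0.94 and 0.80 (adjusted p = 0.122, 0.227 and 0.521), per the authors' deposited table. Of 10 B and plasma cell markers 1 was listed, Ighm, at 1.63 (adjusted p = 0.132) in unstimulated cells, per the authors' deposited table. Of 9 osteoclast markers 1, 1 and 2 were listed: Ctsk, which fell by 1.89 in unstimulated cells, per the authors' deposited table, Mmp9 in both LPS conditions, and Car2 in LPS tolerant cells.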
